A study of Mus musculus with 32 samples.

Results

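Gene expression was compared between 2 sets of mouse cartilage samples that the labels name R2 and R1. The comparison took all 1606 genes of the cartilage table in 4 samples, 2 labelled R2 and 2 labelled R1, out of 32 samples in the series. The series sequenced RNA in bulk from cartilage (14 samples, 2 in each of 7 groups) and from synovium (18 samples, 3 in each group). All mice were C57BL/6. The 7 cartilage groups were R2, R1, Control, and MMS D3, D7, D14 and D28 of a model named MMS. What MMS, R2 and R1 stand for is not spelled out in the labels, nor is the unit of the numbers after D. The labels give no age, and do not say whether R2 and R1 mice went through the MMS model or whether a sample is 1 animal or a pool. Every p-value therefore measures the spread between samples, which may be technical.

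Articular cartilage is an avascular tissue whose resident cell, the chondrocyte, makes a matrix of type II collagen and aggrecan. The bone beneath it encloses marrow, where B cells develop and neutrophils mature. B cell precursors assemble an antigen receptor with the RAG recombinase and the surrogate light chain, and mature B cells signal through CD79A and CD79B and display antigen on class II molecules. Neutrophils fill azurophil granules with serine proteases early in their development and specific granules with lactoferrin and other proteins later.

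No unit is stated for the normalised cartilage signal, so levels are compared between samples and not between genes. Where the signal of a list is summed, its genes of highest signal weigh most in the sum. No read counts were used, and the sequencing depth is unknown. The listed values summed to 117470 and 131320 in R2, 149830 and 145680 in R1 and 130470 and 121070 in Control, and since the genes are a selection these sums say nothing of depth. The table holds genes chosen by a rule that is not stated: 1590 of the 1606 (99.0%) differed at least 1.5-fold between the means of MMS D28 and Control. Between the means of R2 and R1, 461 genes (28.7%) did so. Every share of all genes given below is a share of this selection. No pair of the 4 samples shared more than 0.436% identical values. Chondrocyte genes were present in all 4 samples: Col2a1, the chain of type II collagen, had a signal of 1204 and 845 in R2 against 640.2 and 452 in R1, and Comp, a cartilage matrix glycoprotein, had 863 and 820.2 in R2 against 798 and 716 in R1.

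In R2 cartilage the genes of B cells were higher and those of neutrophils lower than in R1 cartilage. Of 23 measured genes of a B cell list, 22 were higher, by a median of 1.35 on the log2 scale over the 23. Of 35 measured genes of a neutrophil list, 26 were lower, and the median over the 35 was -0.68. Over all 1606 genes, 571 (35.6%) passed an adjusted p of 0.05 in limma, with 212 higher in R2 (13.2%) and 359 lower (22.4%), and the median change was 0.07. Counts of calls in the lists are to be read beside these shares. All changes are differences of log2(signal + 1), R2 minus R1, and understate the change of low genes. Among the called genes, 41 were higher and 19 lower by at least 1 on this scale. The 2 R2 samples lay on one side of both R1 samples in every called gene. They did so in 1265 of all 1606 genes (78.8%), 630 higher (39.2%) and 635 lower (39.5%). The count of calls depended on single libraries: it was 178 without R1 replicate 1, 140 without R1 replicate 2, 138 without R2 replicate 1 and 444 without R2 replicate 2. Of the 571 genes, 106 were called in each of these 4 reduced fits and none changed sign in any. In bulk samples, fewer cells of a type and less RNA per cell cannot be told apart.

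**Figure D1:**
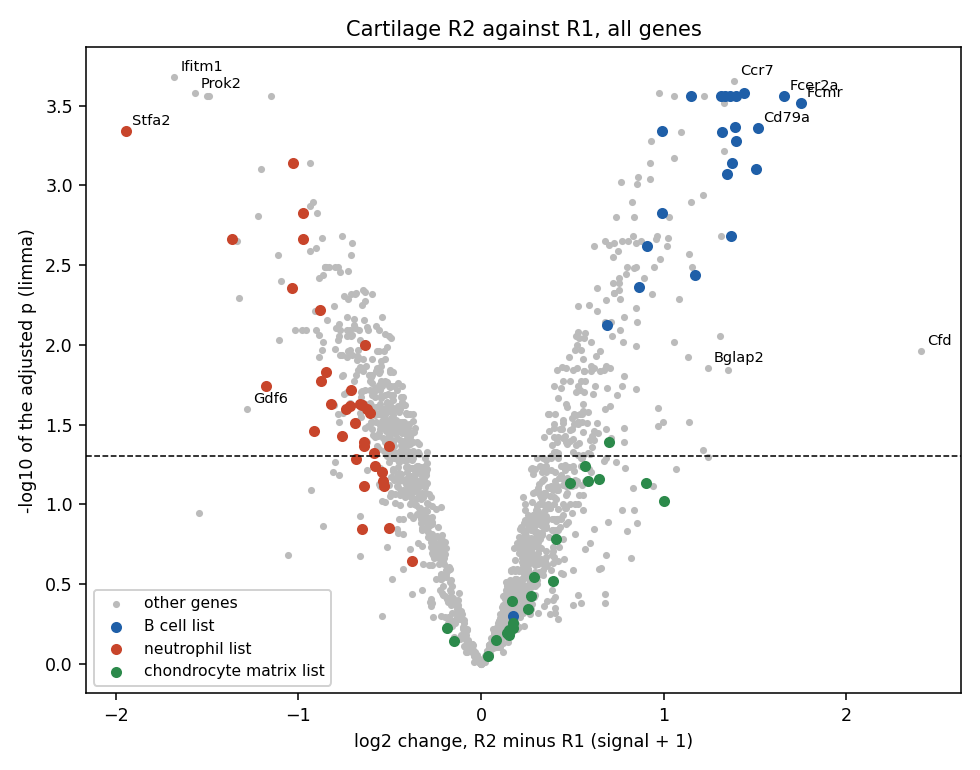
Each point is 1 of the 1606 cartilage genes, with the log2 change of R2 minus R1 across and the negative log10 of the limma adjusted p upward. The dashed line marks an adjusted p of 0.05. Of the coloured lists, 22 of 23 B cell genes lie above the line on the right, 26 of 35 neutrophil genes lie above it on the left, and 1 of 22 chondrocyte matrix genes passes it.

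The upstream sequences of 4 genes are shown because their members moved together within a list: Cd79a and Vpreb3 from the B cell list, and Elane and Ctsg from the neutrophil list. Each runs from 250 bases before the RefSeq transcription start to 50 after it, on GRCm38.p6. Cd79a lies at chr7:24897247-24897546 and encodes a signalling chain of the B cell receptor. Vpreb3 lies at chr10:75948050-75948349 and encodes a protein related to the surrogate light chain. Elane, at chr10:79886062-79886361, encodes neutrophil elastase, and these 3 are on the plus strand. Ctsg, on the minus strand at chr14:56102525-56102824, encodes cathepsin G. Capitals mark the matches to the motifs searched, on either strand: ETS (GGAAGT), the octamer (ATGCAAAT), C/EBP (TTGCNNAA) and EBF (TCCC and GGGA with 2 bases between).
Cd79a: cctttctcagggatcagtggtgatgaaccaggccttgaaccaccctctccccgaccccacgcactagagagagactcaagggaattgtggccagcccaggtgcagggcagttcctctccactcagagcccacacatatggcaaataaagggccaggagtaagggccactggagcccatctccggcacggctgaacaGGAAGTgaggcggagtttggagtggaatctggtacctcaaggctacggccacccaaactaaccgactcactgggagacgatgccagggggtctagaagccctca
Vpreb3: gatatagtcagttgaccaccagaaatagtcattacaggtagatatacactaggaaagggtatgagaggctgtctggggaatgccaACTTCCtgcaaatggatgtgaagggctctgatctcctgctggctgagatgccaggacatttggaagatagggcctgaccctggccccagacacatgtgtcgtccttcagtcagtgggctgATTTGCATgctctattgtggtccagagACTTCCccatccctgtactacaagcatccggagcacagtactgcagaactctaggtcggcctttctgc
Elane: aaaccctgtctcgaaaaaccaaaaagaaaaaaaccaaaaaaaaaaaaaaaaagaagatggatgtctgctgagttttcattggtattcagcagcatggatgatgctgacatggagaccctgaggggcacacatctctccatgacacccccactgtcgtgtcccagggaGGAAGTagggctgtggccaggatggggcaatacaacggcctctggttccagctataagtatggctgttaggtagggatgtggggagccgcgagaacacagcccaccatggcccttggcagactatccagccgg
Ctsg: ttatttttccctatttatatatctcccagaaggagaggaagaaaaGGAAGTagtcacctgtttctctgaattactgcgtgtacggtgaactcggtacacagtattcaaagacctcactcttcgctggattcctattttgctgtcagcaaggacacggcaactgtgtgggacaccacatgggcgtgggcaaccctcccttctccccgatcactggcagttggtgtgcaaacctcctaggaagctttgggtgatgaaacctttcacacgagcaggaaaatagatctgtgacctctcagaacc
The Vpreb3 window holds 1 octamer and 2 ETS matches, and the other 3 windows hold 1 ETS match each. Among RefSeq promoters of this length, 23.8% hold the ETS letters and 1.74% the octamer. The ETS letters occurred in 42.9% of 21 promoters of the B cell list and 53.3% of 30 promoters of the neutrophil list. The octamer occurred in 2 of the 21 and 0 of the 30. The C/EBP letters occurred in 30.0% of the neutrophil promoters, 14.3% of the B cell promoters and 10.8% of all. The EBF letters occurred in 1 of the 21, 0 of the 30 and 0.904% of all. A match is a description of the letters and not a binding site.

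Both chains of the B cell receptor's signalling unit were higher in R2. Cd79a had a signal of 315 and 307 in R2 samples, against 115 and 101 in R1 samples and 219 and 239.7 in Control samples. Both R2 samples lay above both R1 samples, and above both Control samples. The change was 1.52 ± 0.20 (log2, SE, n = 2 each), with a limma adjusted p of 0.000439. Cd79b had 175 and 185 in R2 samples against 72.3 and 63.2 in R1 samples, a change of 1.40.

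Receptors of mature B cells showed some of the largest changes. Fcmr, the receptor for the constant part of IgM, had 64.5 and 56.2 in R2, against 18.4 and 16.1 in R1 and 46.9 and 54.2 in Control. Its R2 and R1 samples did not overlap, and the change was 1.75 ± 0.22 with a limma adjusted p of 0.000305. Fcer2a, the low-affinity IgE receptor CD23, had 21.7 and 16.2 in R2 against 5.16 and 5.33 in R1, a change of 1.66. Ccr7, a chemokine receptor that guides lymphocytes to lymph nodes, had 7.88 and 7.22 in R2 against 2.40 and 2.14 in R1, a change of 1.39. The R2 signal exceeded the R1 signal in each pairing of samples for all 3 receptors, as in every gene called higher. Cd22, an inhibitory co-receptor, changed by 1.44, Ms4a1 (CD20) by 1.505 and Tnfrsf13c, the receptor for the survival factor BAFF, by 1.36. Receptors of mature B cells were also counted as a family, assembled after the values were seen. Most of its members are in the B cell list too, so its count largely repeats that list's. All 11 measured receptors were called higher, beside 13.2% of all genes. Of these, 9 passed in each of the 4 reduced fits, while Cd40 and Cd83 lost their call in all 4, with an adjusted p up to 0.217 and 0.207.

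Spib, Pax5, Blk, Pou2af1 and Ebf1, which act inside B cells, were among the 22 genes called. Spib, an ETS-family factor, had 118.0 and 123.5 in R2 against 47.6 and 42.9 in R1, a change of 1.40. Pax5, which holds cells in the B lineage, had 35.6 and 31.7 in R2 against 12.95 and 11.8 in R1, a change of 1.37. Blk, a Src-family kinase of the receptor, changed by 1.39 and Pou2af1, a coactivator of octamer-binding factors, by 1.31. Ebf1, which acts early in B cell commitment, changed by 0.91. All 5 had both R2 samples above both R1 samples, as every gene called higher did.

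Genes of B cell precursors, a family assembled after the values were seen, were higher in part. Of its 5 measured members 4 were called higher, beside 13.2% of all genes. Il7r, which changed by 0.49, is also counted in the T and NK cell list, and the other members are also counted in the B cell list. Vpreb3 had 157 and 179.8 in R2, against 80.3 and 68.3 in R1 and 124 and 115 in Control, a change of 1.17 with a limma adjusted p of 0.00364. Rag1, one chain of the recombinase, had 6.60 and 7.89 in R2 against 3.70 and 3.33 in R1, a change of 0.87. Igll1, the surrogate light chain λ5, was the 1 measured B cell gene that did not pass. It had 24.3 and 23.4 in R2 against 18.9 and 23.2 in R1, a difference of 0.18 with a 95% interval of -0.28 to 0.63.

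Summed over the 23 measured genes, the B cell signal was 1401 and 1426 in R2, 568 and 532 in R1, and 1083 and 1152 in Control. As a mean of log2(signal + 1), the list stood at 5.24 and 5.20 in R2, above the 3.99 and 3.98 of R1. Control had 4.90 and 5.01, below both R2 samples. The MMS groups ran from 4.29 and 4.45 at D3 to 3.76 and 3.76 at D7, 3.59 and 3.62 at D14 and 3.02 and 3.60 at D28. R1 thus lay below D3 and above D7 in order. The list's 22 calls did not rest on a single library: 21 of them passed in each of the 4 reduced fits, and the exception was Bank1, with an adjusted p of 0.0603 without R1 replicate 1 and 0.0661 without R2 replicate 1. The other 10 of the 33 listed genes were not analysed here.

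The measured genes of class II antigen presentation were higher in R2. Of these, H2-Ob is also counted in the B cell list, and Cd74 and H2-Ab1 in the macrophage and monocyte list. Cd74, the invariant chain, had 980.1 and 797 in R2, against 402 and 358 in R1 and 718 and 813 in Control, a change of 1.22. The share of all genes called higher was 13.2%. All 6 measured genes of the 11 in this family, assembled after the values were seen, were called higher, by a median of 1.08. They included H2-Ab1, a class II chain (1.02), H2-Ob, a chain of an accessory molecule of B cells (1.35), and Ciita, the master activator of class II genes (0.77). H2-Oa, with an adjusted p of 0.0613 without R1 replicate 1, 0.0503 without R1 replicate 2 and 0.0923 without R2 replicate 1, was the 1 of the 6 that did not pass in every reduced fit.

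All 4 measured genes of a plasma cell family, assembled after the values were seen, were called higher in R2, beside 13.2% of all genes. Jchain, which joins IgM and IgA into multimers, had 63.4 and 68.6 in R2, against 43.6 and 32.9 in R1 and 27.0 and 27.99 in Control. The 3 groups did not overlap. At MMS D3 Jchain had 18.74 and 17.05, and at MMS D28 it had 57.65 and 48.21. The B cell list went the other way, lower at MMS D28 than at D3. The family's other measured genes did not share the size of Jchain's rise. Their means at MMS D3 and D28 were 3.85 and 2.66 for Irf4, 2.325 and 2.19 for Slamf7, and 9.04 and 9.635 for Mzb1. The change of Jchain in R2 was 0.78 from R1 (limma adjusted p of 0.0156) and 1.23 from Control (adjusted p of 0.0326). Irf4, Mzb1 and Slamf7, which act in plasma cells among other cells, were each higher in R2 than in R1, by 0.86, 0.80 and 0.80. Jchain lost its call against R1 without R1 replicate 2 (adjusted p of 0.125), R2 replicate 1 (0.0654) or R2 replicate 2 (0.0551), and Mzb1 without R1 replicate 2 (0.0501). Against Control, Jchain lost its call without R2 replicate 1 (0.0514), R2 replicate 2 (0.113), Control replicate 1 (0.0567) or Control replicate 2 (0.152), and with only those groups fitted (0.0572).

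T and NK cell genes did not all move the same way. Of 6 measured of 23 listed, 3 were higher, 1 was lower and 2 did not pass. Over all genes, 13.2% were called higher and 22.4% lower. Cd2, an adhesion receptor of lymphocytes, had 18.8 and 18.9 in R2 against 6.82 and 7.14 in R1, a change of 1.32. Cd8b1 and Il7r changed by 0.52 and 0.49, and Nkg7, a granule protein of cytotoxic cells, by -0.57. Both R2 values of Nkg7 lay below both R1 values, at 71.4 and 82.3 against 120 and 109. Cd2 passed in every reduced fit. Il7r and Nkg7 lost their call in each of the 4 (adjusted p up to 0.192 and 0.230), and Cd8b1 in all except the fit without R2 replicate 2, with an adjusted p of 0.0595 without R1 replicate 1, 0.0511 without R1 replicate 2 and 0.0545 without R2 replicate 1.

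**Figure D2:**
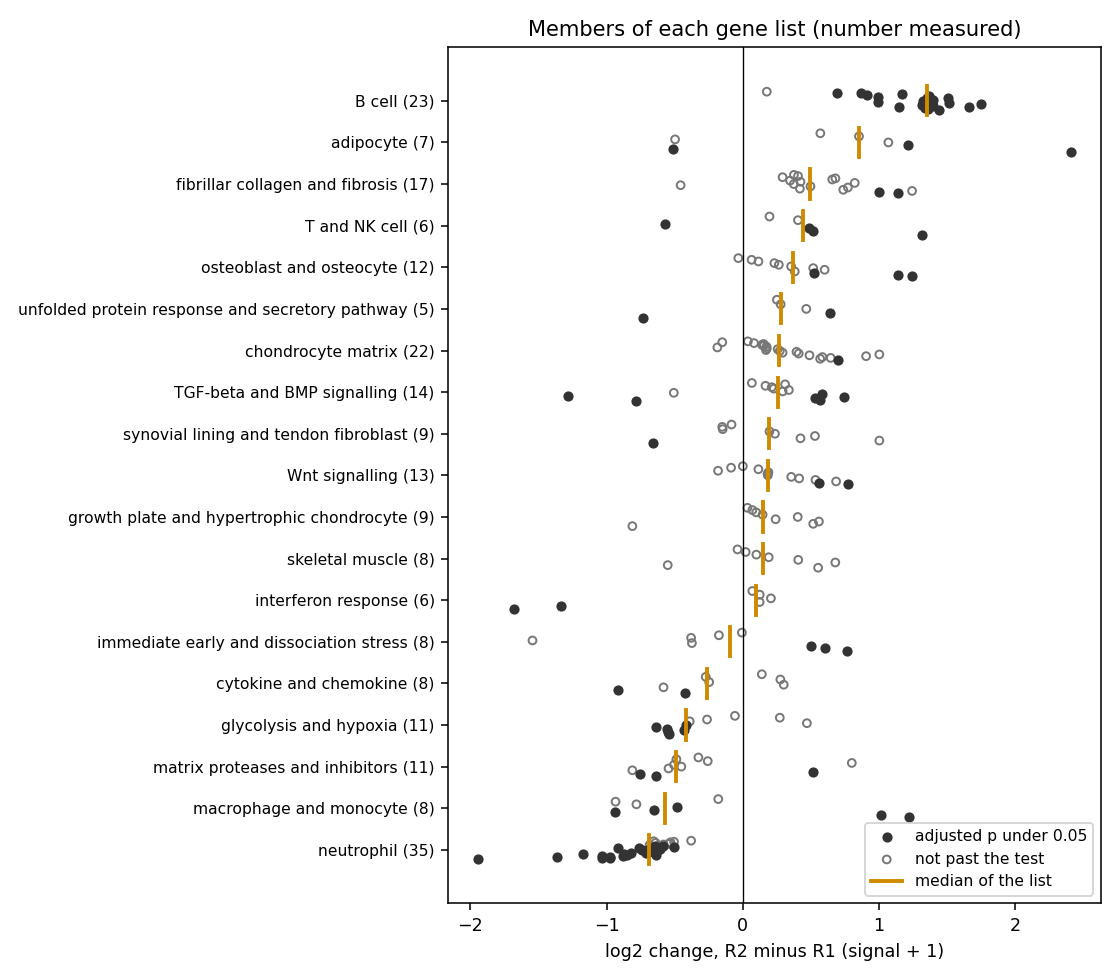
Each row is a gene list with at least 5 measured members, and each point is a member's log2 change of R2 minus R1, filled where it passed and open where it did not. The short bar is the list's median. The B cell list stands at a median of 1.35 and the neutrophil list at -0.68, while the chondrocyte matrix list stands at 0.26.

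The neutrophil genes were lower in R2. The stefin A and granule families below were assembled after the values were seen, and most of their members are also in the neutrophil list. Their counts thus largely repeat that list's 26 of 35, and 22.4% of all genes were called lower. Stfa2, a stefin A protease inhibitor of the mouse, had 1.59 and 3.73 in R2, against 11.98 and 12.97 in R1 and 1.93 and 3.46 in Control. The R2 samples bracketed the Control samples and lay below both R1 samples. The change was -1.94 ± 0.26 with a limma adjusted p of 0.000456. Stfa1 had 4.66 and 5.55 in R2 against 13.4 and 16.1 in R1, and BC100530, another stefin A copy, had 1.51 and 3.32 in R2 against 6.35 and 6.53 in R1. Of 6 measured stefin A copies, all 6 were called lower, by a median of -1.27, and 4 passed in every reduced fit. The copies are near identical and lie together, so the assignment of their reads is uncertain.

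Genes of azurophil granule proteins, a family assembled after the values were seen, were also lower. Prtn3, proteinase 3, had 370 and 448 in R2, against 899 and 773 in R1 and 398 and 406 in Control, a change of -1.03. Ctsg had 162 and 179.8 in R2 against 364 and 312 in R1, a change of -0.98. Elane had 800.4 and 966 in R2 against 1494 and 1284 in R1, a change of -0.65, and Mpo, myeloperoxidase, changed by -0.62. Both R2 samples lay below both R1 samples in each of these genes, and all 6 measured azurophil genes were called lower, of which 1, Ctsg, passed in every reduced fit.

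Later granule and calprotectin genes were lower by similar amounts, but not all passed. Ltf, lactoferrin, had 1218 and 1508 in R2 against 2210 and 2021 in R1, a change of -0.64. S100a8, a calprotectin subunit, had 6954 and 8606 in R2, against 13672 and 13638 in R1 and 6880 and 6926 in Control, a change of -0.82 with a limma adjusted p of 0.0234. Its partner S100a9 did not pass, with 9297 and 11908 in R2 against 16488 and 17349 in R1 and an adjusted p of 0.0521. Of 11 genes of specific and gelatinase granules, a family assembled after the values were seen, 8 were called lower, beside 22.4% of all genes. Mmp9, which degrades gelatin and is also made by osteoclasts, had 357 and 381 in R2 against 585 and 562 in R1, a change of -0.64.

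The neutrophil calls depended on single libraries. Over the list, 7 genes were called without R1 replicate 1, 7 without R1 replicate 2, 5 without R2 replicate 1 and 26 without R2 replicate 2. The 5 called in each of these fits were Ctsg, Ms4a3, Stfa1, Stfa2 and Stfa2l1. Under quantile normalisation the count was 17. The direction was shared: all 35 measured members had both R2 samples below both R1 samples, against 39.5% of all genes. The 1606 genes are a selection, 99.0% of them at least 1.5-fold apart between MMS D28 and Control. That count is thus a description and not a test. As a mean of log2(signal + 1), the list stood at 7.31 and 7.66 in R2, 8.27 and 8.24 in R1 and 7.26 and 7.34 in Control. R2 replicate 2 was thus the R2 sample nearer to R1. The MMS groups had 7.55 and 7.78 at D3, 7.67 and 7.27 at D7, 8.11 and 8.28 at D14 and 8.74 and 8.27 at D28, so R1 fell among the D14 and D28 samples. The stefin copies differed from this order: their means of 4.25 and 4.21 in R1 lay below every MMS sample, which ran from 4.48 to 5.97.

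The genes Ifitm1 and Ifitm6 and several genes outside the neutrophil list were among the largest falls. Ifitm1, an interferon-induced membrane protein, had 41.0 and 46.8 in R2, against 162 and 125 in R1 and 34.0 and 37.6 in Control. The R2 samples lay above both Control samples and below both R1 samples. Its change of -1.68 ± 0.16 had the smallest adjusted p of the table, 0.000208 in limma. Ifitm6 had 320.3 and 429 in R2 against 923 and 955 in R1, a change of -1.34. The other 4 measured genes of the interferon list had positive changes and did not pass. The list as a whole thus had 2 of 6 lower, beside 22.4% of all genes, and a median of 0.097. Prok2, a secreted protein of myeloid cells, changed by -1.57, Wfdc17 by -1.49, and Lrg1, a secreted glycoprotein of neutrophil granules, by -1.22. Lilr4b and Ms4a6d changed by -1.15 and -1.20. Lilr4b has a near-identical neighbour, so the assignment of its reads is uncertain.

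Macrophage and monocyte genes split in direction. Of 8 measured of 31 listed, 3 were lower and 2 higher, beside 22.4% and 13.2% of all genes. The 2 higher ones, Cd74 and H2-Ab1, are class II genes that B cells also express. Ccr2, the receptor that brings monocytes out of marrow, had 19.8 and 23.0 in R2 against 39.2 and 44.4 in R1, a change of -0.94. Both R2 samples lay below both R1 samples, as in every gene called lower. Ly6c2, a marker of inflammatory monocytes, and F13a1 changed by -0.65 and -0.48. Ccr2, Cd74 and H2-Ab1 passed in all 4 reduced fits. Ly6c2 lost its call in 3, with an adjusted p of 0.118 without R1 replicate 1, 0.0711 without R1 replicate 2 and 0.154 without R2 replicate 1, and F13a1 in all 4, with an adjusted p up to 0.212.

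**Figure D3:**
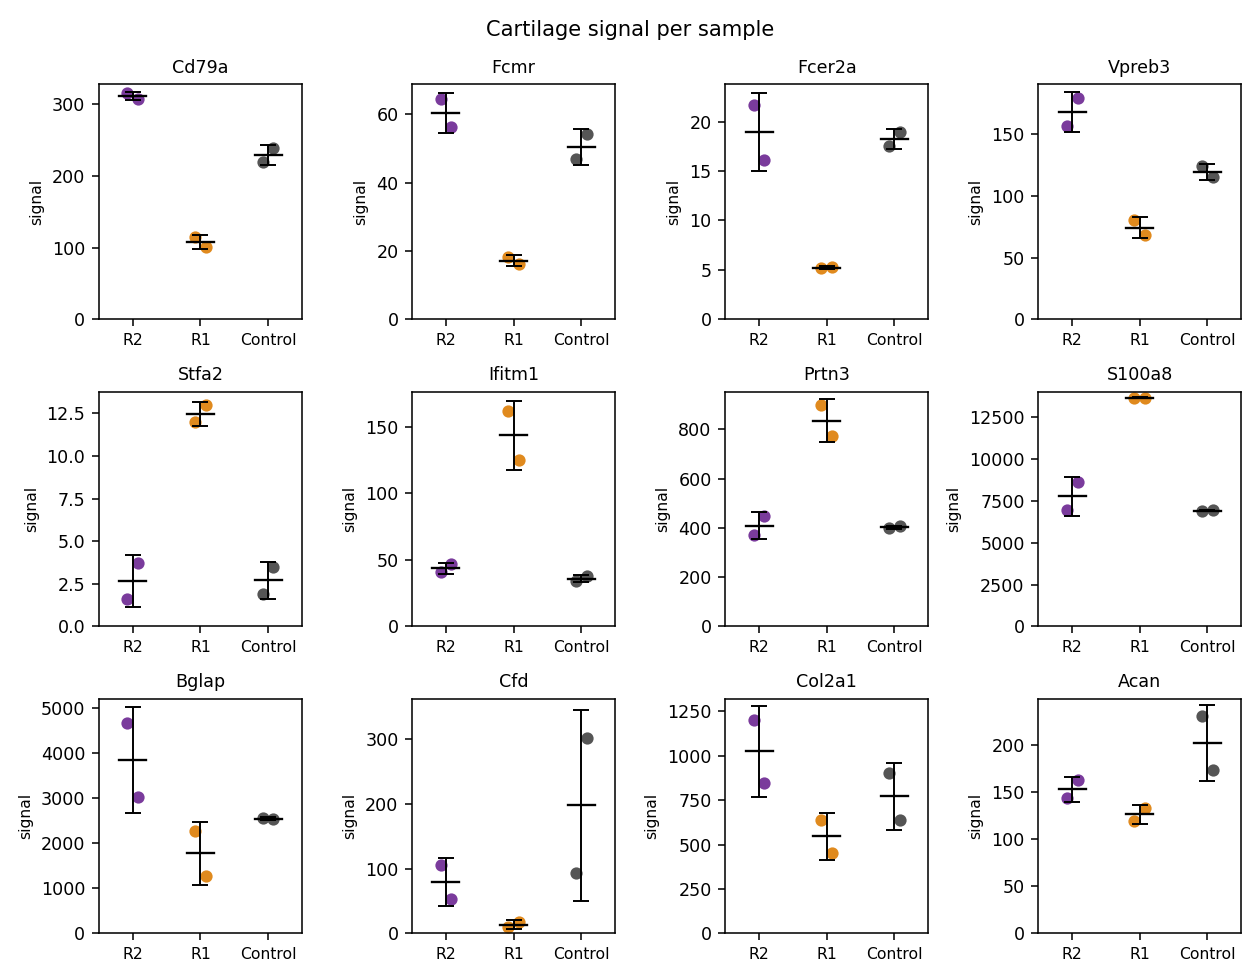
Cartilage signal of 12 genes in the R2, R1 and Control samples. Points are samples, horizontal bars are means and error bars are SD (n = 2). The 4 genes of the top row are higher in R2 than in R1, those of the middle row are lower, and the bottom row shows Bglap, Cfd, Col2a1 and Acan, of which Col2a1 and Acan did not pass.

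Few genes of the cartilage matrix passed the test. Of 22 measured chondrocyte matrix genes, 1 passed: Cilp2, a matrix protein, had 126 and 159 in R2 against 97.6 and 76.8 in R1, a change of 0.70 with a limma adjusted p of 0.0405. It lost that call in each of the 4 reduced fits, with an adjusted p up to 0.219. Col2a1, whose R2 samples both lay above both R1 samples, differed by 0.91 with an adjusted p of 0.0733 and a 95% interval of 0.09 to 1.72. Acan, aggrecan, had 144 and 163 in R2 against 119 and 134 in R1, a difference of 0.27 with an interval of -0.26 to 0.80. For Comp the interval of the difference was -0.38 to 0.69, and for Prg4, the lubricin of the joint surface, it was -0.87 to 0.57. The median over the 22 genes was 0.26, and 14 of them had both R2 samples above both R1 samples, against 39.2% of all genes. None of 9 growth plate genes passed. These intervals do not show that the 2 groups were alike.

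Bone genes were higher in part. Bglap, osteocalcin of osteoblasts, had 4664 and 3017 in R2, against 2269 and 1278 in R1 and 2566 and 2526 in Control, a change of 1.14. Bglap2 changed by 1.24. Both R2 samples lay above all R1 and Control samples for Bglap. The 2 genes are near-identical copies, and the assignment of their reads is uncertain. Sost, the Wnt inhibitor of osteocytes, had 49.3 and 49.0 in R2, against 36.0 and 32.0 in R1 and 94.2 and 96.6 in Control, so R2 lay between the other 2 groups. Its change was 0.52 from R1. Of 12 osteoblast and osteocyte genes, these 3 were higher and 9 did not pass, beside 13.2% of all genes called higher. Bglap and Bglap2 lost their call without R1 replicate 2 (adjusted p of 0.219 and 0.119) or R2 replicate 1 (0.209 and 0.126), and Sost in all 4 fits (adjusted p up to 0.200).

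Growth factor pathways held a few calls in both directions. Among TGF-beta and BMP genes, 4 of 14 were higher and 2 lower, beside 13.2% and 22.4% of all genes. Bmp6, a bone morphogenetic protein, had 9.84 and 11.6 in R2 against 5.87 and 6.05 in R1, a change of 0.75, and the BMP antagonist Nog and the inhibitory Smad6 changed by 0.57 and 0.53. Tgfbi, a matrix protein induced by TGF-beta, had 71.8 and 71.3 in R2 against 119 and 129 in R1, a change of -0.78. Gdf6, a growth factor of joints, had 3.98 and 1.36 in R2 against 6.19 and 8.66 in R1, a change of -1.28. Wnt11, a Wnt ligand, had 2.67 and 4.07 in R2 against 1.56 and 1.48 in R1, a change of 0.78. Lef1, a transcription factor of the Wnt pathway that lymphocytes also express, changed by 0.56. Wnt11 and Lef1 were the 2 of 13 Wnt genes called, both higher, beside 13.2% of all genes called higher. Tgfbi passed in every reduced fit. Nog, Bmp6 and Lef1 lost their call in all 4 (adjusted p up to 0.0946, 0.0932 and 0.168). Smad6 lost its call without R1 replicate 1 (0.0617), R1 replicate 2 (0.110) or R2 replicate 1 (0.146), Gdf6 without R1 replicate 1 (0.0613), R1 replicate 2 (0.140) or R2 replicate 2 (0.152), and Wnt11 without R1 replicate 2 (0.0642) or R2 replicate 2 (0.0563).

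Of 17 measured genes of fibrillar collagen and fibrosis, 2 were higher in R2, beside 13.2% of all genes. Loxl2, which cross-links collagen, had 31.9 and 29.5 in R2 against 12.3 and 14.6 in R1, a change of 1.14, and Col15a1, a collagen of basement membranes, changed by 0.999. Postn, periostin, had 34.6 and 10.8 in R2 against 7.13 and 8.22 in R1 and did not pass, with an adjusted p of 0.0507. The median over the list was 0.50, with 15 of 17 genes not called. Loxl2 and Col15a1 lost their call without R1 replicate 1 (adjusted p of 0.0778 and 0.119), R1 replicate 2 (0.0501 and 0.106) or R2 replicate 1 (0.0757 and 0.186).

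The gene with the largest change was Cfd, adipsin, a complement protease made by fat cells. It had 105 and 52.7 in R2, against 9.46 and 18.2 in R1 and 93.7 and 302 in Control. Both R2 samples exceeded both R1 samples, but the replicates of each group differed widely. The change was 2.41 ± 0.58 with a limma adjusted p of 0.0109, and it lost its call without R1 replicate 1 (0.0824) or R2 replicate 1 (0.0992). Of 7 measured adipocyte genes of 33 listed, 2 were higher, Cfd and Scd1, and 1 was lower. Over all genes, 13.2% were called higher and 22.4% lower. Scd1, a fatty acid desaturase, changed by 1.22 and lost its call without R1 replicate 1 (0.168), R1 replicate 2 (0.119) or R2 replicate 1 (0.254). Their summed signal was 354 and 235 in R2, 176 and 175 in R1 and 296 and 732 in Control. The part of fat in this result was not tested. Slurp1, a secreted protein of epithelia, had 16.9 and 25.4 in R2 against 7.60 and 7.44 in R1, a change of 1.35. It lost its call without R1 replicate 1 (0.0635), R1 replicate 2 (0.0755) or R2 replicate 2 (0.0653).

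Among the 14 largest falls were 3 more genes of other kinds. Asprv1, a retroviral-like protease of skin and neutrophils, had 9.61 and 15.1 in R2 against 29.5 and 34.3 in R1, a change of -1.33. Prss16, a serine protease, had 1.72 and 2.06 in R2 against 5.53 and 4.97 in R1, a change of -1.11. Dmkn, dermokine, had 4.88 and 8.76 in R2 against 15.1 and 15.6 in R1, a change of -1.11. In each of the 3, both R2 samples lay below both R1 samples, which the rule for naming them required. Prss16 passed in all reduced fits. Asprv1 and Dmkn lost their call without R1 replicate 2 (adjusted p of 0.0501 and 0.0621) or R2 replicate 1 (0.0590 and 0.104), and BC100530 without R1 replicate 1 (0.0740), R1 replicate 2 (0.0880) or R2 replicate 1 (0.166).

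Glycolysis genes were lower in part, with 6 of 11 measured genes called lower and none higher, beside 22.4% of all genes called lower. Each of the 6 calls depended on single libraries, and none of the 6 changed sign with a library left out. Hk2, the hexokinase that starts the pathway, had 5.46 and 5.72 in R2 against 8.87 and 8.31 in R1, a change of -0.54, and Slc2a3, a glucose transporter, changed by -0.64. G6pdx, which opens the pentose phosphate pathway and supplies NADPH, had 96.9 and 116 in R2 against 183 and 188 in R1, a change of -0.80. Both R2 samples lay below both R1 samples for Hk2 and G6pdx, as in every gene called lower. Hk2 lost its call without R1 replicate 1 (adjusted p of 0.0595) or R2 replicate 1 (0.0589), Slc2a3 without R1 replicate 1 (0.136), R1 replicate 2 (0.109) or R2 replicate 1 (0.215), and G6pdx without R1 replicate 2 (0.0501) or R2 replicate 1 (0.0647).

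**Figure D4:**
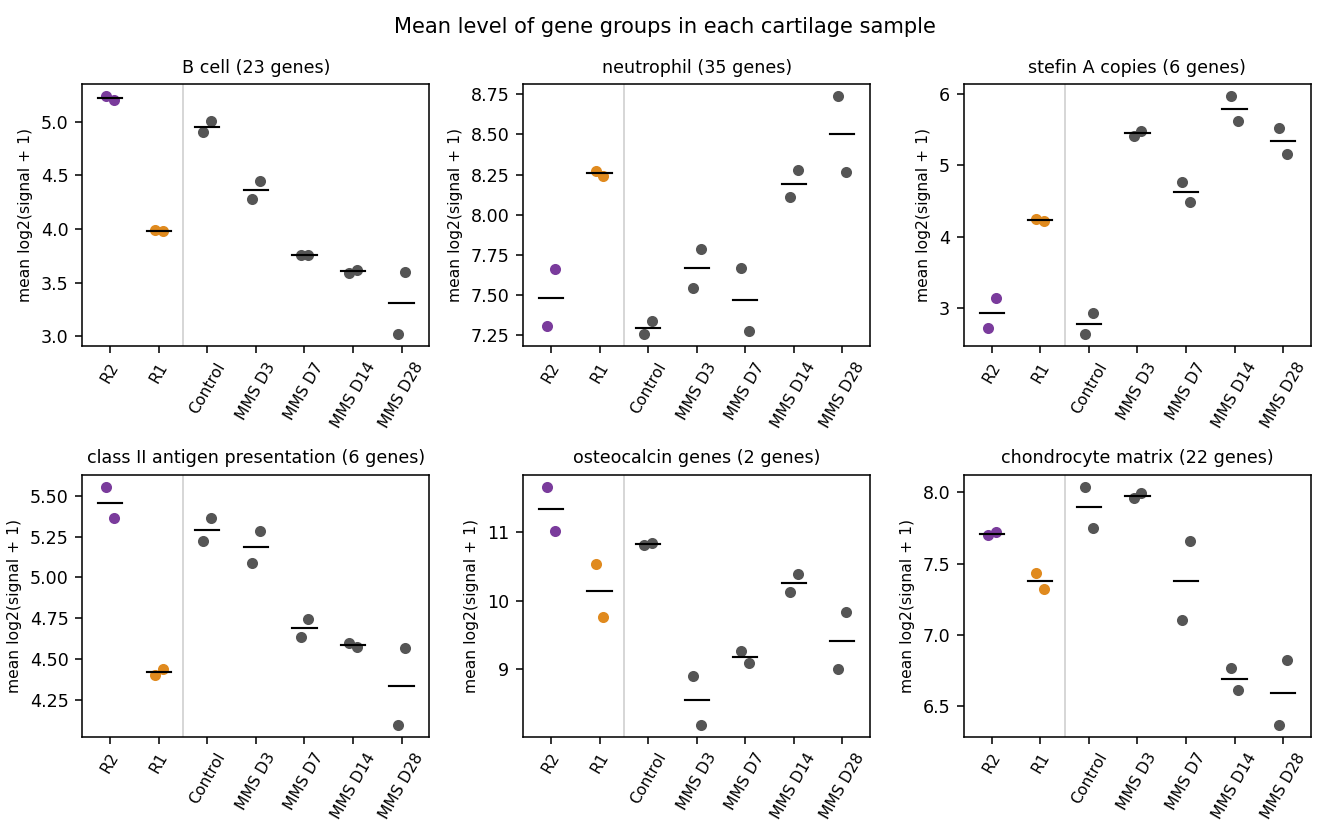
Mean log2(signal + 1) of 6 gene groups in each cartilage sample, with R2 and R1 left of the grey line and the Control and MMS groups to its right. Points are samples and bars are group means. The B cell list stands at 5.24 and 5.20 in R2 against 3.99 and 3.98 in R1, and the neutrophil list at 7.31 and 7.66 in R2 against 8.27 and 8.24 in R1.

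The calls in the remaining lists are to be read against the 35.6% of all genes called. Among 11 matrix proteases and inhibitors, Plat, a plasminogen activator, was higher (0.51), and Mmp9 and Mmp25 were lower. Among 8 cytokines, chemokines and their receptors, Ccl9 and the decoy receptor Il1r2 were lower, by -0.42 and -0.92. Of 5 genes of the unfolded protein response and secretory pathway, Serpinh1, a collagen chaperone, was higher (0.64) and Trib3, a stress-induced pseudokinase, was lower (-0.73). Of 4 genes of fatty acid metabolism, 1 was higher, and of 8 immediate early and stress genes 3 were higher. These 3 were the heat shock genes Hspa1b, Hsph1 and Hspa1a, which are counted again in a later family. The other 5 measured members had negative changes and did not pass. The single measured platelet gene, Nrgn, was higher, and the single measured osteoclast gene, Mmp9, was lower. The single measured genes of the mast cell, cell cycle and mitochondrial lists did not pass. Plat and Ccl9 lost their call in all 4 reduced fits (adjusted p up to 0.174 and 0.172). Trib3 lost it without R1 replicate 2 (0.102) or R2 replicate 1 (0.0668), and Nrgn without R1 replicate 2 (0.174), R2 replicate 1 (0.0694) or R2 replicate 2 (0.0640). Il1r2, Mmp25, Mmp9 and Serpinh1 lost theirs without R1 replicate 1, R1 replicate 2 or R2 replicate 1 (adjusted p up to 0.254, 0.201, 0.0811 and 0.324).

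Markers of other tissues were counted whole. None of 8 measured skeletal muscle genes and 0 of 2 endothelial genes passed, and the 38 listed erythroid genes were not analysed here. The skeletal muscle signal summed to 227 and 156 in R2 and 181 and 158 in R1, which overlap. Of 9 genes of synovial lining and tendon fibroblasts, 1 was lower. The 35 neutrophil genes summed to 37089 and 46798 in R2 and 67607 and 65508 in R1, against 36111 and 36624 in Control. The neutrophil and B cell sums moved with the other changes of R2 against R1, and their part in those changes was not tested.

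Measured from Control, R2 differed in few of the 1606 selected genes and R1 in many. In limma, 12 of 1606 genes (0.747%) passed between R2 and Control, 1 higher (0.0623%) and 11 lower (0.685%). Between R1 and Control 1112 passed (69.2%), 578 higher (36%) and 534 lower (33.3%). Both comparisons share the Control samples. Both shares are of genes that mostly differed between MMS D28 and Control. They do not measure how far R2 or R1 lies from Control over all expressed genes. The split of R1 calls depended on scaling: with each sample centred on its median it was 624 higher and 308 lower, since the median of all genes between R1 and Control was -0.19. The median absolute difference of group means was 0.19 between R2 and Control, 0.49 between R1 and Control and 0.36 between R2 and R1. It was 0.17 between the 2 R2 samples, 0.10 between the 2 R1 samples and 0.12 between the 2 Control samples. The R1 count was 536 without Control replicate 1, 636 without R1 replicate 1 and 564 without R1 replicate 2. The 1 gene higher in R2 than in Control was Jchain. The lower ones, named after their values were seen, included Sost (-0.94), Mepe, a matrix protein of osteocytes (-1.14), and Dkk1, a secreted Wnt inhibitor (-0.81). Sost and Dkk1 lost their call in all and in 3 of the 4 fits that left out an R2 or Control library, with an adjusted p up to 0.167 and 0.210, and Mepe lost it without R2 replicate 2 (0.131) or Control replicate 2 (0.155). The 12 calls fell to 3 without Control replicate 2 and to 0 without R2 replicate 2, and numbered 17 without Control replicate 1. A fit of those groups alone gave 0. The B cell genes showed the pattern per gene: Fcmr differed by 0.25 between R2 and Control and by -1.499 between R1 and Control, and Cd79a by 0.44 and -1.08. For Ifitm1 the differences were 0.28 and 1.96. None of these 3 genes passed between R2 and Control, and all 3 passed between R1 and Control.

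The same 2 groups were compared in synovium, in separate libraries, with FPKM of 1178 genes in 3 samples each. No gene was called in limma (0%), where 52 had an unadjusted p under 0.05 and the smallest adjusted p was 0.421. The B cell genes were not analysed in synovium, and the 3 measured neutrophil genes did not pass. Of 240 genes in both tables, 61 were called in cartilage. Of the 61, 30 had the same sign in synovium. There 3 of the 61 had an unadjusted p under 0.05, beside 52 of all 1178 synovium genes. The 3 were Akap12, an anchoring protein of kinase A, Txnip, an inhibitor of thioredoxin, and Gatm, an enzyme of creatine synthesis. Akap12 changed by 0.86 in cartilage, and its synovium difference was 0.52. Txnip changed by 0.52 in cartilage and differed by 0.51 in synovium, and Gatm changed by -0.71 in cartilage and differed by -0.76 in synovium. The synovium samples of Gatm overlapped, with 5.17, 8.35 and 8.90 FPKM in R2 against 7.32, 32.1 and 9.02 FPKM in R1, and without R1 replicate 2 the difference was -0.14. Akap12 kept an unadjusted p under 0.05 with each synovium R2 or R1 library left out, while Txnip did so in 1 of the 6 such fits. Akap12 passed in cartilage in every reduced fit, while Txnip lost its call without R1 replicate 1 (adjusted p of 0.0815), R1 replicate 2 (0.107) or R2 replicate 1 (0.159), and Gatm without R1 replicate 2 (0.0641) or R2 replicate 1 (0.0654). Cfd, with the largest cartilage change, differed by -0.07 in synovium. Whether the 2 tissues differ in their change was not tested, since the tables were normalised separately.

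**Figure D5:**
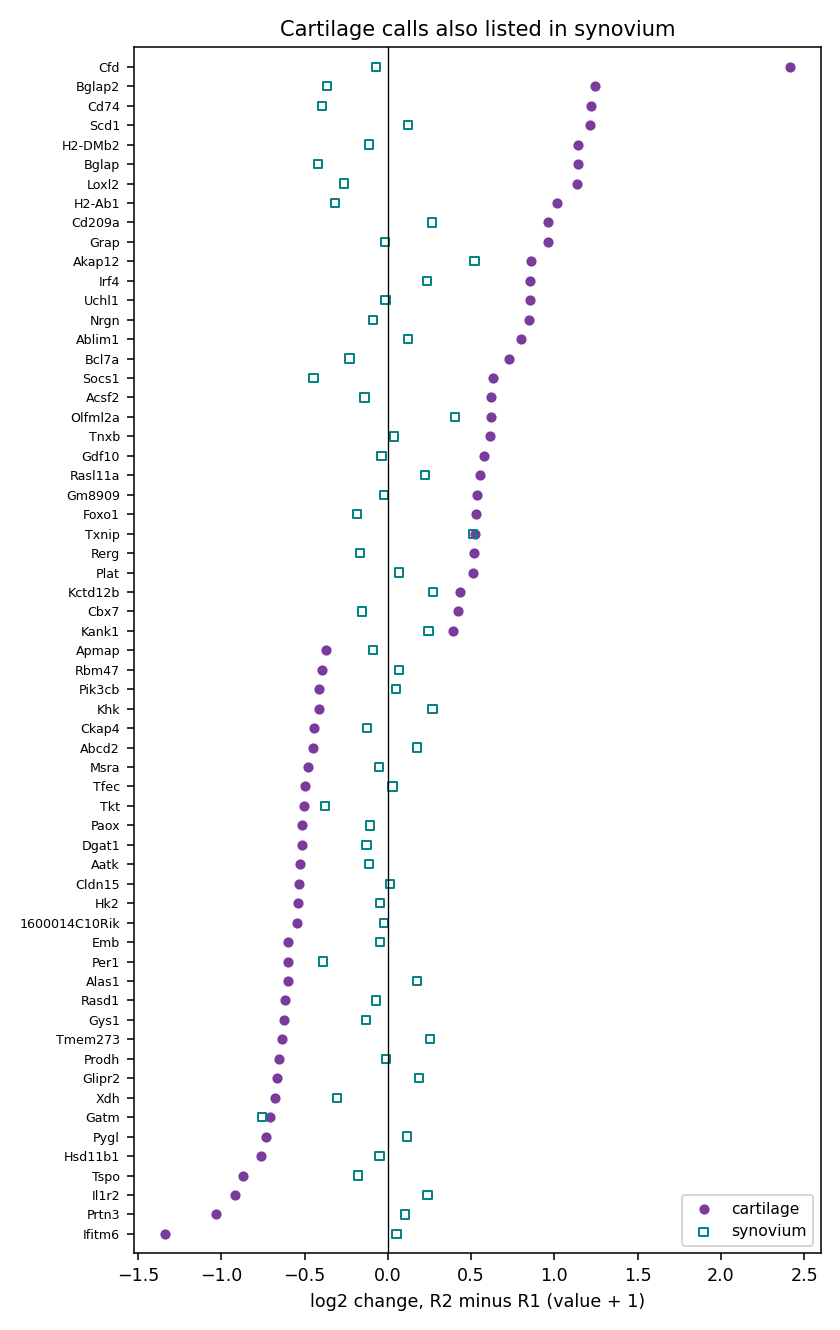
Log2 change of R2 minus R1 for the 61 genes called in cartilage that are also in the synovium table, with cartilage as filled circles and synovium as open squares. The cartilage points are called genes by choice, and none of the synovium points passed. Of the 61 genes, 30 have the same sign in both tissues.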

How the data were processed

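RNA was extracted with Trizol and libraries were made with BGI protocols, per the labels. Reads were aligned with HISAT2 to mm10, per the submitters' processing notes. The authors deposited 1 table of selected genes per tissue: a normalised signal of unstated unit for cartilage, and FPKM per the file headers for synovium. The counter and its handling of strand are not given in the sources used here.

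All groups of a table were fitted together on log2(value + 1) with a variance trend, using limma 3.58.1 in R 4.3.3. Genes with a Benjamini-Hochberg adjusted p under 0.05, over the whole table, were called. A filter (at least 1 in 2 cartilage or 3 synovium samples) removed no gene. Named genes were the 14 largest rises and 14 largest falls among called, non-overlapping genes without predicted symbols, plus 2 to 4 members per list. The result of 1 gene taken by this rule is not reported here. The members and the 28 lists were chosen with earlier results of these data known, and 17 families after the values were seen. Alternatives were median centring, quantile normalisation, a pseudocount of 0.1, no filter, no trend, a replicate block, only the groups compared, and each library left out. The fit was tested on simulated data. Promoters came from RefSeq (GRCm38.p6), which held 18 of the 28 named genes.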

Additional observations from a re-analysis of the deposited data

How the results depend on the processing

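Depth is unknown, so no counting interval or detection limit can be given, and 2 samples per group limit the precision. With 1 library left out, the lone sample is assumed to vary like the other groups. For R2 against R1 the 571 calls became 619 (186 higher, 433 lower) with median centring, 519 with quantile normalisation, 554 with a pseudocount of 0.1, 571 with no filter, 586 without the trend, 698 with only the groups compared, and 138 to 444 with 1 library left out. With an absolute log2 change of at least 1 they were 60. For R2 against Control the 12 calls became 5 at that size, 0 with only the groups compared, and 0 to 17 with 1 library left out. The R1 against Control count became 103 at that size and 536 to 799 with 1 library left out. Synovium stayed at 0 calls in every alternative. The replicate number as a block gave 469 calls for R2 against R1 and 1 for R2 against Control. The main fit had no block because the labels do not say that replicate numbers pair samples. The replicate differences of R2 and R1 had a correlation of 0.0074 over the genes. With 1 difference per group, that value cannot settle whether samples were paired.

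None of the 28 named genes changed sign in any alternative, and all 28 kept their call in the 7 that left out no library. The counts of B cell and neutrophil genes under these settings, and the values of single genes against Control and in synovium, were added after seeing the data. The B cell count was 21 or 22 in all, and the neutrophil count was 28 with median centring and 21 with the block. The cause of these shifts was not tested.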

Other observations

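In gene families assembled after the values were seen, the counts of calls between R2 and R1 were as follows, beside 13.2% of all genes called higher and 22.4% called lower. All 4 measured Gimap genes, GTPases of lymphocytes, were called higher in R2, by a median of 0.72. Gimap8 had 4.34 and 3.23 in R2 against 1.81 and 1.84 in R1. All 4 measured genes of the leukotriene pathway were called lower, by a median of -0.72. Among them Alox5ap, which presents arachidonic acid to the lipoxygenase, had 257 and 324 in R2 against 522 and 535 in R1. Of 5 subunits of the phagocyte NADPH oxidase, 4 were called lower, among them Ncf4, with 99.3 and 113 in R2 against 178 and 170.0 in R1. Of 5 genes of glycogen metabolism, 4 were called lower, among them the phosphorylase Pygl, with 75.4 and 99.7 in R2 against 145 and 144 in R1. Gimap8 passed with each R2 or R1 library left out, and the other 3 Gimap genes lost their call without at least R2 replicate 1, with an adjusted p up to 0.309. No called gene of the leukotriene, NADPH oxidase or glycogen families passed in all 4 of those fits. Alox5ap, Ncf4 and Pygl lost their call in 3 of those 4 fits, without R1 replicate 1, R1 replicate 2 or R2 replicate 1, with an adjusted p up to 0.102, 0.0843 and 0.169. Of 6 Ms4a genes of myeloid cells 5 were called lower, and of 3 metallothioneins 1 was.

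Of 4 measured clock genes, 1 was called higher and 1 lower. Arntl, a core activator of the circadian clock, had 9.89 and 10.2 in R2 against 5.74 and 6.33 in R1, a change of 0.65. Per1, a clock repressor, had 11.3 and 12.1 in R2 against 17.5 and 18.9 in R1, a change of -0.60. The labels used here give no hour of collection. Of 4 measured copies of Serpina1, an inhibitor of neutrophil elastase, 1 was called: Serpina1b had 89.0 and 163 in R2 against 52.2 and 44.2 in R1, and reads of these near-identical copies are uncertain. Of 6 heat shock genes, 4 were called higher, among them Hspa1b, with 9.25 and 8.50 in R2 against 5.20 and 4.45 in R1. Each of these 4 named genes lost its call in at least 2 of the 4 fits that left out an R2 or R1 library.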
